A study of Mus musculus with 8 samples.

Results

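The cytosolic ribosomal protein (RP) genes were described across the sorted CD4 T cell subsets (naïve, TFH, Treg, TFR) of peripheral lymph nodes (pLN). Members were the genes whose name on the array follows the pattern Rpl or Rps with a number and at most 1 trailing a, x or l, together with Rplp0, Rplp1, Rplp2 and Rpsa. This gave 80 gene names with 187 probes. Each gene was read from the probe with the highest mean log2 level and entered the tests where any cell type had both of its arrays well above background there, which left 78 of the 15764 genes tested in all, 46 of the large and 32 of the small ribosomal subunit. All 78 were well above background in each of the 4 cell types. The other 2, Rpl10l and Rpl3l, were at the floor of 20 on all 8 arrays.

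The authors pooled and sorted pLN cells of 8 to 15 mice of mixed gender and 8 to 14 weeks of age, all of the strain B6.Cg-Foxp3<tm1Mal> (Foxp3-EGFP reporter) and all immunized s.c. with KLH and alum. The sort gates were GFP-PD1loGL7- for naïve CD4 T cells, GFP-PD1hiGL7+ for TFH, GFP+PD1loGL7- for Treg and GFP+PD1hiGL7+/- for TFR cells, so that no group came from unimmunized mice, TFH cells were restricted to GL7+ cells and TFR cells were not. Every subset has 1 array for d12 and 1 for d25 p.i., made from 25 ng of RNA after one round of amplification. The arrays of both days served as replicates, and p-values measure only the spread between these 8 arrays.

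Ribosomal proteins and ribosomal RNA together form the small subunit, which reads the mRNA, and the large subunit, which joins amino acids. RP mRNAs are among the most abundant mRNAs of a lymphocyte, and in vertebrates most of them begin with a run of pyrimidines, the TOP motif, through which the kinase mTOR and the RNA binding protein LARP1 control their translation and stability. Activated T cells enlarge their ribosome pool as they grow. Some RPs also act outside the ribosome, among them Rpl5 and Rpl11, which bind the p53 inhibitor Mdm2.

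Start sites are shown first because the TOP motif is known for RP mRNAs. RefSeq windows of 300 bases around the start were found for 57 member genes (68 entries, assembly GRCm38.p6). The motif searched was a C followed by at least 4 bases that are each C or T, with its first base within 5 bases of the annotated start on the transcribed strand. It was found in 30 of the 68 entries (44.1%), against 18.3% of all 32851 entries, and exactly at the start in 13 (19.1%), against 2.51% of all. The complementary pattern, a G followed by at least 4 bases that are each A or G, read in the same direction and span, gave 16.2% and 20.5%. The windows below run from 10 bases before the start over 30 bases, with the tract in capitals. Rps6, Rpl14, Rpl27a, Rps27 and the first of the 2 entries of Rps27l hold one, while Rpl23, Rpl5 and Rps3 do not within this span.
Rps6 (chr4:86857348-86857377, minus strand): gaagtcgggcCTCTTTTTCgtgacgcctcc
Rpl14 (chr9:120571507-120571536, plus strand): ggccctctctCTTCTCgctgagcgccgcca
Rpl27a (chr7:109519185-109519214, plus strand): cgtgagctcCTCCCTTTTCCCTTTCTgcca
Rps27 (chr3:90213629-90213658, minus strand): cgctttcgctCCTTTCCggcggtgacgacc
Rps27l (chr9:66946076-66946105, plus strand): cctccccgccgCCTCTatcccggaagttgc
Rpl23 (chr11:97782420-97782449, minus strand): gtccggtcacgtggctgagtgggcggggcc
Rpl5 (chr5:107900518-107900547, plus strand): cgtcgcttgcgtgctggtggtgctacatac
Rps3 (chr7:99483690-99483719, minus strand): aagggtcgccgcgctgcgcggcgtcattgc

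Probes are shown next because the result depends on which probe of a gene is read. The array had more than 1 probe above background for 59 of the 78 genes, up to 7 per gene. For 18 of the 78 genes at least 1 probe above background lay between 1000 and 65000 relative units (RU) in mean level. The brightest probe of that range is called the dimmer probe. In 17 of the 18 it was another one than the brightest probe of the gene, and in Rps27l it was the same. The first 30 of the 60 bases of both probes are given for 4 genes with large differences, with positions in build NCBI37 as in the files.
Rps6 brightest (chr4:86500748-86500807, minus strand): tgtcctgcaacacaaatgccgacgtattgc
Rps6 dimmer (chr4:86500063-86500122, minus strand): tggtgtgtatcacaagttagcctgtgtagc
Rpl23 brightest (chr11:97639350-97639409, minus strand): gcagcattgcatgattctccagtgtatttg
Rpl23 dimmer (chr11:97638917-97638976, minus strand): acaaaacacgcattcttttcaggtctttgc
Rpl27a brightest (chr7:116664097-116664156, plus strand): cgggtcaatgtggcaaaaaacaagactgga
Rpl27a dimmer (chr7:116665756-116665815, plus strand): caacaggacatcactggttgggaatactgt
Rpl14 brightest (chr9:120483487-120483546, plus strand): aaaggcggctggcaagaaagcgtgaggcta
Rpl14 dimmer (chr9:120483689-120483748, plus strand): cagggggtaccatgacagtacaacagtgtc
In all 17 genes both probes lay on the same chromosome and strand. The dimmer probe lay 3' of the brightest in 12 genes, by 202 to 2559 bases of genome including introns, and 5' of it in 4, Rpl30, Rpl6 and Rps24 among them. In Rpl7a both covered the same place with different bases. Whether the dimmer probes read the same transcripts as the brightest was not tested. The brightest probe of Rps27, Rps29 and Rps4x is placed by the files on another chromosome than the gene in the RefSeq table, so reads from copies of these genes cannot be told apart there.

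RP genes were among the brightest features of the arrays. Of the 78 genes, 30 had their probe among the 100 brightest of 39429 probes, 70 among the 500 brightest and 75 among the 1000 brightest. The mean level over 8 arrays had a median of 511441 RU and exceeded 100000 RU in 75 genes. The 3 others were Rps27l and the sparse paralogs Rps4l and Rpl39l, the last at a mean of 801 RU. No spot was saturated by the flag of the software.

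How follicular cells compared with naïve CD4 T and Treg cells depended on the scaling. RU are the spot signals after quantile normalization, the scaling used by the authors, which gives every array the same distribution. On this scale the median RP level was 515693 and 511689 RU on the naïve arrays (d12 and d25), 523646 and 498350 RU in TFH, 512540 and 513193 RU in Treg and 527726 and 518693 RU in TFR cells. The TFH arrays spanned the range of the naïve and Treg arrays, and both TFR arrays lay above these by little. When arrays were instead scaled to a common 75th percentile (P75) of 1500, the median was 779372 and 727988 RU on the naïve arrays, 471982 and 353471 RU in TFH, 560937 and 506621 RU in Treg and 510625 and 399860 RU in TFR cells. Here naïve CD4 T cells were highest and TFH cells at d25 lowest, with both TFH arrays below both naïve and both Treg arrays.

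**Figure D1:**
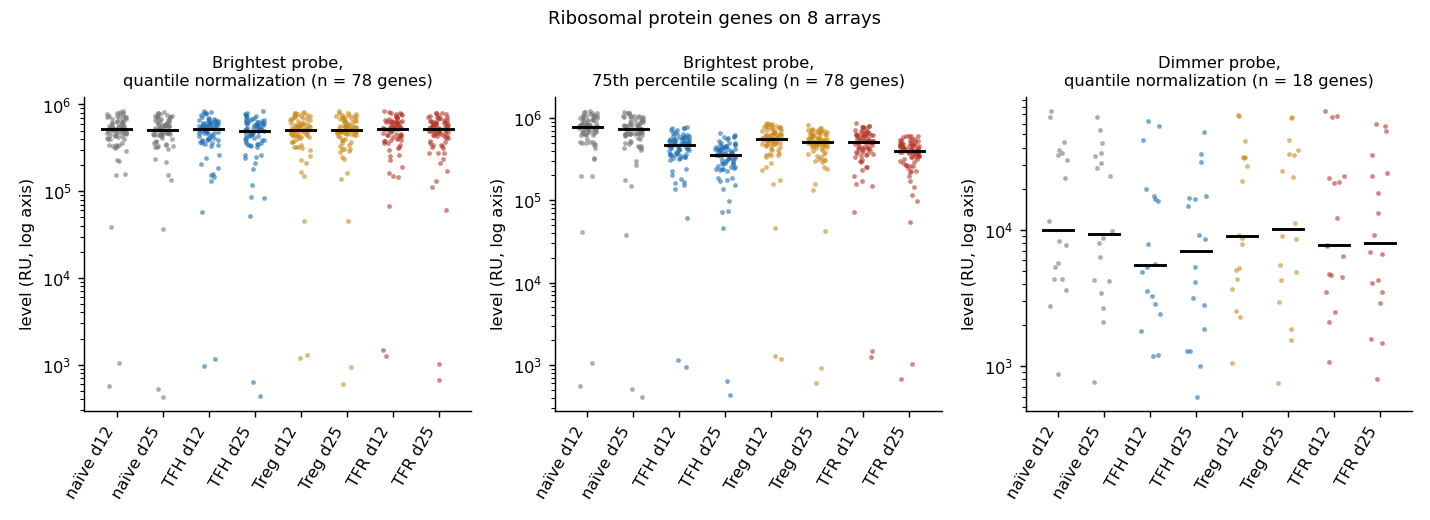
Level of each RP gene (points, RU, log axis) on the 8 arrays with the median as a bar, for the brightest probe of 78 genes after quantile normalization (left) and P75 scaling (middle), and for the dimmer probe of 18 genes (right). The medians of the left panel lie between 498350 and 527726 RU, those of the middle panel between 353471 RU (TFH d25) and 779372 RU (naïve d12).

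The signals before any scaling show where these scales part. The median RP signal was 267081 and 234163 on the naïve arrays, 243406 and 188822 on the TFH arrays, 259646 and 234954 on the Treg arrays and 236245 and 234108 on the TFR arrays. The 75th percentile of all probes was 514 and 482 on the naïve arrays but 773 and 801 on the TFH arrays, 694 and 696 on the Treg arrays and 694 and 878 on the TFR arrays. RP probes thus differed less between arrays than the 75th percentile did. Their share of the summed signal of all probes was also taken, which scales each array to its own total. It was 9.81% and 9.90% in naïve CD4 T cells, 8.15% and 7.69% in TFH, 8.92% and 8.87% in Treg and 8.57% and 8.03% in TFR cells. The share was highest on the naïve arrays, and the shares of TFH and TFR cells lay below those of both non-follicular types without overlap.

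In TFH compared with naïve CD4 T cells, the quantile scale called 6 of 78 RP genes lower and 2 higher (limma, adjusted p below 0.05), where 25.6% of all genes tested were lower and 20.9% higher. The median difference was -0.06 on the log2 scale, against -0.07 over all genes. Called lower were Rpl5, Rps3, Rpl3, Rps4x, Rps19 and Rpl36a, of the 2 subunits alike, and called higher were Rps4l and Rps27l. All 6 called lower had a mean level below the RP median of 511441 RU, from 183102 RU (Rpl5) to 438152 RU (Rps19). RP probes above 250000 RU had a median of -0.05 on this scale and -0.90 on the P75 scale. A part of the probe level in which genes were called was not tested. Without the naïve array of d12 the count of 8 became 2, and without that of d25 it became 5. Rpl5 (-0.84 and -0.79, adjusted p = 0.0520 and 0.0563) and Rps27l (0.55 without the d12 array, adjusted p = 0.0539) missed the threshold there.

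Rpl5 is the partner of 5S rRNA in the large subunit. Its level was 230200 and 232630 RU on the naïve arrays (d12 and d25), 147211 and 117991 RU in TFH, 210914 and 234889 RU in Treg and 161976 and 169265 RU in TFR cells. All follicular arrays were below all non-follicular arrays. TFH cells were lower than naïve CD4 T cells by 0.81 ± 0.14 (log2, SE, n = 2 arrays each, adjusted p = 0.00892), while the TFR to Treg difference of -0.43 had an adjusted p of 0.0637. Rpl11, the other RP of the 5S particle, ranged from 538639 to 579342 RU over all arrays, with a difference of -0.06 between TFH and naïve CD4 T cells. These are values of the quantile scale. On the P75 scale both were lower in TFH cells, Rpl5 by 1.33 and Rpl11, on its brighter probe, by 0.92.

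Rps3 lines the mRNA entry channel of the small subunit. It was at 290704 and 304489 RU on the naïve arrays, 159456 and 208645 RU in TFH, 251810 and 286512 RU in Treg and 190590 and 209128 RU in TFR cells. Follicular and non-follicular arrays did not overlap. Rps3 fell by 0.71 ± 0.11 in TFH (adjusted p = 0.00664) and by 0.43 ± 0.11 in TFR cells (adjusted p = 0.0342), and was the only member called lower in both on the quantile scale. The dimmer probe of Rps3 showed 0.02 for TFR against Treg (adjusted p = 0.888), and the call was not made when any naïve, Treg or TFR array was left out (adjusted p = 0.0553 to 0.172). Rpl3 reaches into the peptidyl transferase center. It was at 339587 and 338412 RU on the naïve arrays, 182732 and 242061 RU in TFH, 321091 and 342073 RU in Treg and 229925 and 272361 RU in TFR cells, again with no overlap of follicular and non-follicular arrays. The fall in TFH cells was 0.69 ± 0.13 (adjusted p = 0.0111), and the TFR to Treg difference was -0.41 (adjusted p = 0.0576). The remaining falls were 0.51 in Rps4x, 0.41 in Rps19, which is mutated in Diamond-Blackfan anemia, and 0.34 in Rpl36a.

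**Figure D2:**
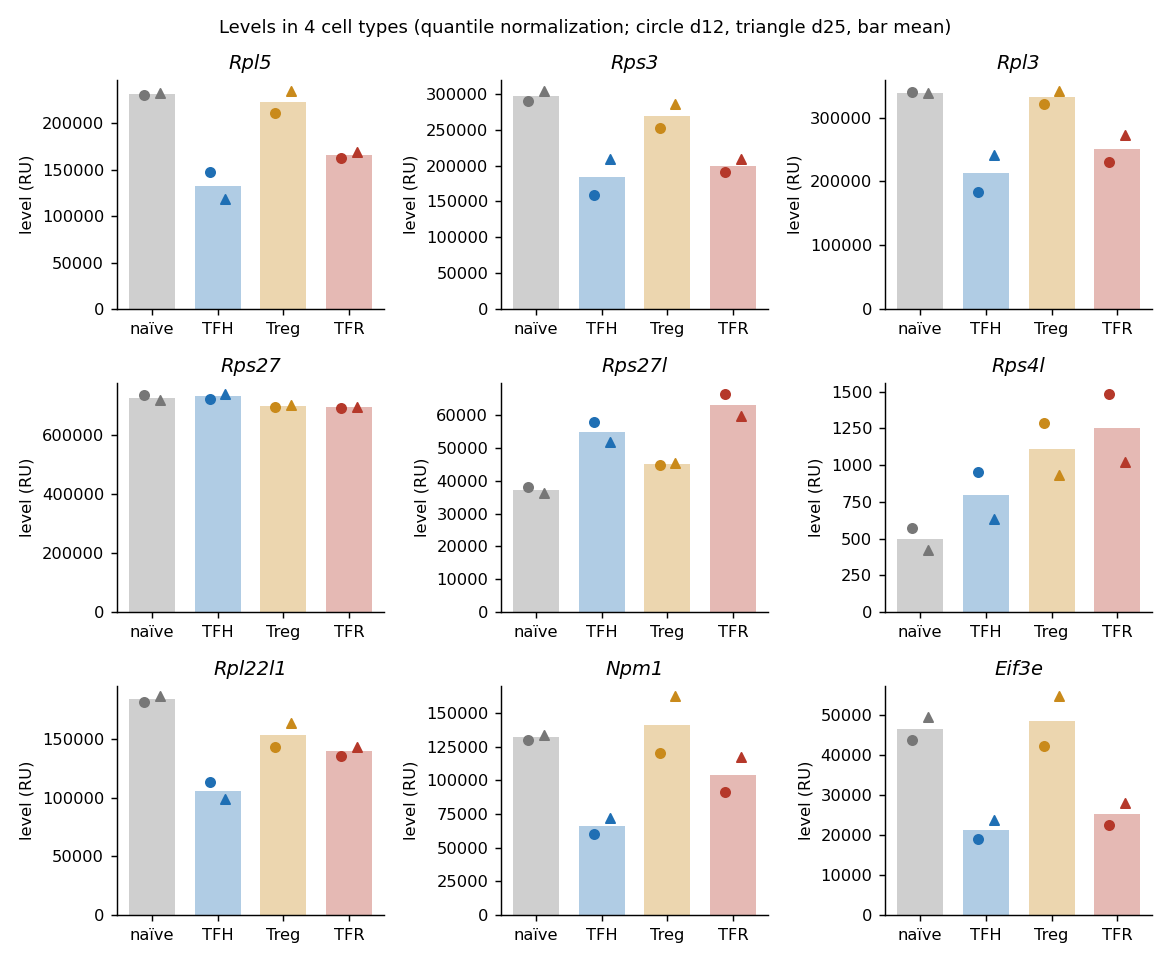
Levels (RU, quantile scale, linear axes from 0) of 9 genes in the 4 cell types, with d12 as circles, d25 as triangles and their mean as bars. Rpl5, Rps3 and Rpl3 are below both non-follicular types on every follicular array, Rps27 ranges from 692057 to 739379 RU over all arrays, and Rps27l and Rps4l are higher in TFH against naïve cells.

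On the P75 scale 74 of the 78 genes were called lower in TFH against naïve cells and 2 higher, against 29.4% of all genes lower. The median difference was -0.90, and -0.13 over all genes. Rpl3 (-1.45), Rps3 (-1.39), Rpl5 (-1.33), Rps4x (-1.28), Rps19 (-1.27) and Rpl36a (-1.16) had the largest falls, and Rps4l and Rps27l rose by 0.72 and 0.44 here as well. Not called were Rpl39l (-0.06, adjusted p = 0.757) and Rps21 (-0.66, adjusted p = 0.0725). Other bright probes moved with the scale to the same extent. Among probes above 250000 RU, the median of 134 RP probes went from -0.05 (quantile) to -0.90 (P75), and that of 416 other probes from -0.05 to -0.89.

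At lower levels the scales gave closer values, and RP probes lay below other probes. From 65000 to 250000 RU the median of 22 RP probes was -0.49 (quantile) and -0.90 (P75), and that of 774 other probes -0.02 and -0.35. From 1000 to 65000 RU it was -0.84 and -0.92 for 19 RP probes, and -0.05 and -0.10 for 9560 other probes. For TFR and Treg cells the RP probes of this range were at -0.25 and -0.24 and the others at -0.07 on both scales.

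**Figure D3:**
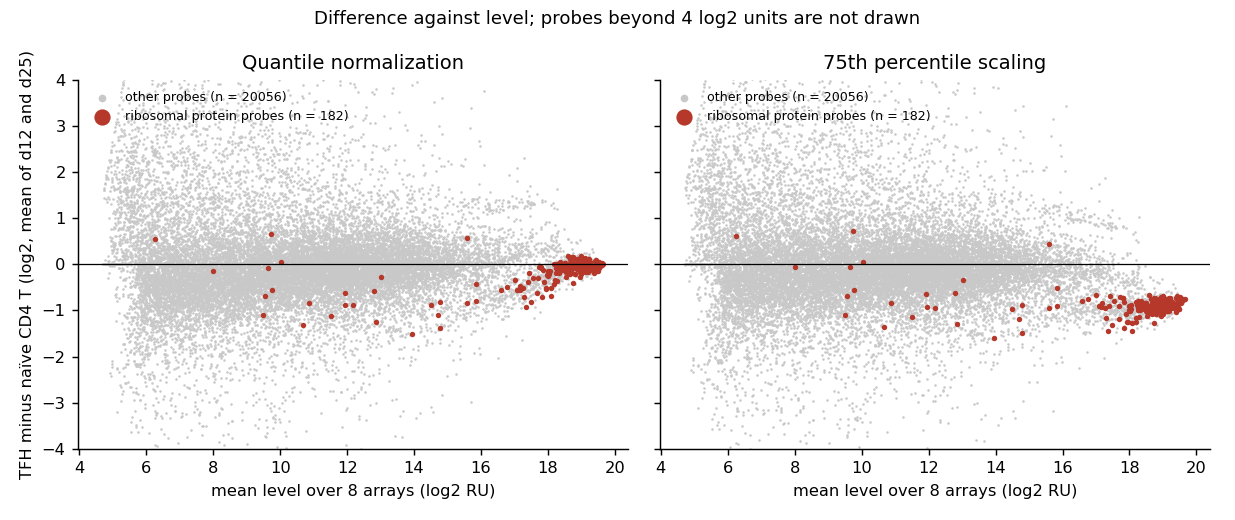
Difference between TFH and naïve CD4 T cells (log2, mean of both days) against mean level (log2 RU) for 182 RP probes (red) and 20056 other probes (grey, those beyond 4 not drawn) after quantile normalization (left) and P75 scaling (right). RP probes of 1000 to 65000 RU have a median of -0.84 on the left and -0.92 on the right, while those above 250000 RU move from -0.05 to -0.90.

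The dimmer probes were therefore fitted on their own. Each of 8145 genes was represented by its brightest probe between 1000 and 65000 RU, a choice made after the dependence on the scale had been seen. Of the 18 RP genes so represented, 14 were called lower in TFH against naïve cells and 1, Rps27l, higher, where 29.4% of all genes were lower and 24.4% higher. The median was -0.86, against -0.05 over all genes, and P75 scaling gave the same counts with a median of -0.91. Both TFH arrays lay below both naïve arrays in 14 genes and above both in Rps27l, and 16 genes were lower at both days. The shares of such genes among all 8145 were not counted, so these counts are description only. Leaving out single arrays gave 13 to 15 genes lower.

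Rps6, the RP phosphorylated by S6 kinases downstream of mTOR, had the largest fall. Its dimmer probe was at 23841 and 24766 RU on the naïve arrays, 7808 and 9215 RU in TFH, 22719 and 24199 RU in Treg and 12246 and 13238 RU in TFR cells. The cell types ranked TFH below TFR below both non-follicular types, without overlap. The fall was 1.52 ± 0.08 in TFH (adjusted p = 4.55e-05) and 0.88 ± 0.08 in TFR cells (adjusted p = 0.000666). For Rps6 the same order stood in the signals before scaling, 8820 and 8231 in naïve CD4 T cells, 4135 and 4756 in TFH, 10599 and 10722 in Treg and 5843 and 7373 in TFR cells. It did not hold for the dimmer probes as a set. Their median signal before scaling was 3554 and 3083 on the naïve and 2887 and 3622 on the TFH arrays, higher in TFH cells at d25. In Treg cells it was 4163 and 4559, and in TFR cells 3645 and 4507. The brightest probe of Rps6 showed -0.16 on the quantile scale and -1.03 on the P75 scale in TFH cells.

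Rpl23, a large subunit protein that also binds Mdm2, was at 44111 and 43433 RU on the naïve arrays, 16809 and 16673 RU in TFH, 33968 and 38225 RU in Treg and 22504 and 25890 RU in TFR cells on its dimmer probe. Both follicular types were below both non-follicular types, with TFH lowest. The falls were 1.39 ± 0.09 in TFH and 0.58 ± 0.09 in TFR cells. Rpl14 of the large subunit was at 11557 and 9848 RU on the naïve arrays, 4897 and 4159 RU in TFH, 8748 and 8536 RU in Treg and 7731 and 6872 RU in TFR cells. TFH arrays stood apart from all others, with a fall of 1.24 ± 0.09, and the TFR to Treg difference of -0.25 was not called (adjusted p = 0.0602). Rpl27a was at 36315 and 34726 RU on the naïve arrays, 16198 and 16994 RU in TFH, 33530 and 36138 RU in Treg and 24038 and 24978 RU in TFR cells. Its falls were 1.10 ± 0.08 in TFH and 0.51 ± 0.08 in TFR cells.

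Among the other dimmer probes, Rpl6 fell by 1.32 in TFH and by 1.10 in TFR cells, Rpl39 and Rpl31 of the peptide exit tunnel fell by 1.12 and 0.89 in TFH cells, and Rpl22, which early T cell development requires, fell by 0.57 in TFH and by 0.35 in TFR cells. Rpl15 (-0.27, adjusted p = 0.143) and Rpl7a (-0.44, adjusted p = 0.132) were among those not called in TFH cells. In 14 of the 17 genes with separate probes, the difference on the dimmer probe was nearer to that of the brightest probe on the P75 scale than on the quantile scale. For TFR and Treg cells this held in 12, for TFR and TFH cells in 16, and for Treg and naïve CD4 T cells in 2 of 17.

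**Figure D4:**
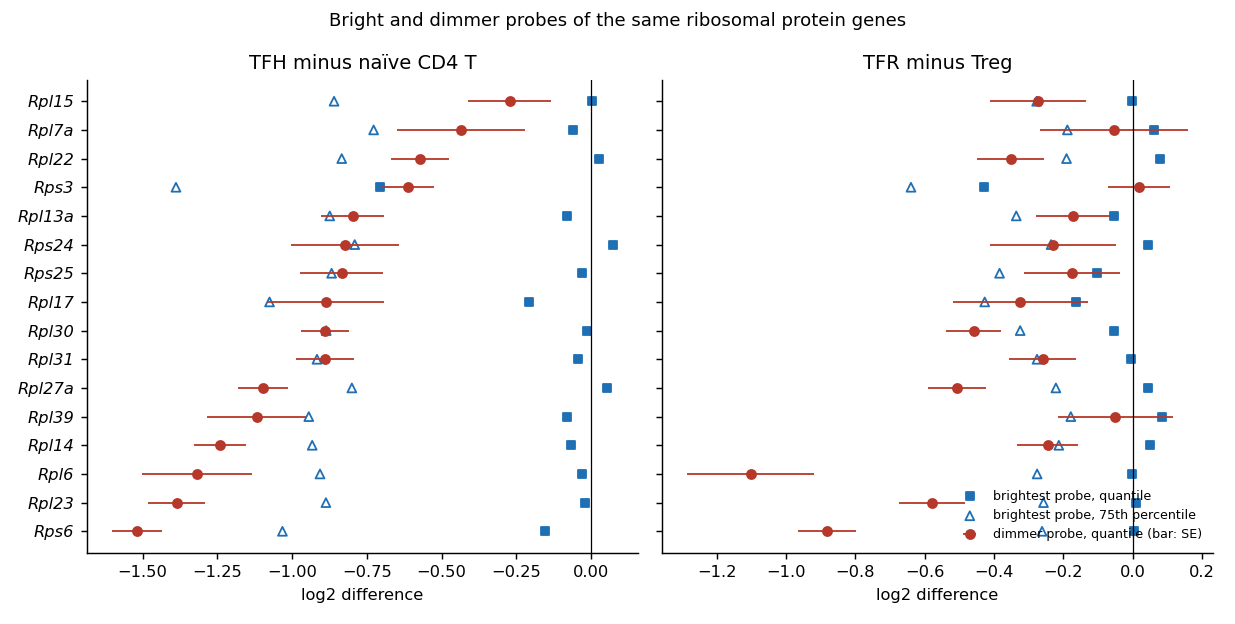
Log2 differences of 16 of the 17 RP genes with separate probes between TFH and naïve CD4 T cells (left) and TFR and Treg cells (right), read from the dimmer probe on the quantile scale (red, bar SE) and from the brightest probe on the quantile (filled squares) and P75 scale (open triangles). On the left, the dimmer probes of Rps6 and Rpl23 are at -1.52 and -1.39, and the brightest probes of the same genes at -0.16 and -0.02 on the quantile scale.

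In TFR compared with Treg cells, the quantile scale called Rps3 lower and Rps27l higher, where 20.9% of all genes were lower and 18.7% higher. The median difference of the RP genes was -0.01, and -0.08 over all genes. P75 scaling called 8 lower, led by Rpl3 (-0.65), Rps3 (-0.64) and Rpl5 (-0.59), against 19.9% of all genes, with a median of -0.26. On the dimmer probes 6 of 18 were lower and 2 higher, where 26.6% were lower and 21% higher. The 6 were Rps6, Rpl6, Rpl23, Rpl27a, Rpl30 and Rpl22, and without the TFR array of d12 the count of 8 became 5. This share was near that of all genes.

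TFR and TFH cells were compared directly, with the same TFH and TFR arrays as in the contrasts above. On the quantile scale 1 RP gene, Rps4l, was called higher in TFR cells and none lower, where 11.6% of all genes were higher and 10.5% lower. Of the dimmer probes 11 of 18 were higher in TFR cells and none lower, where 14.4% of all genes were higher, and the median was 0.56. Rpl39 (0.85), Rpl14 (0.69), Rps24 (0.66), Rps3 (0.64) and Rps6 (0.59) were among them. All 18 except Rpl6 were higher in TFR than in TFH cells at both days, a share that was not counted over all genes. Without either TFR array the count was 3 in place of 11.

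Whether the follicular change differed between Foxp3- and Foxp3+ cells was tested as the TFR to Treg difference minus the TFH to naïve difference. On the brightest probes it was called for none of 78 RP genes by limma (2 at an unadjusted p below 0.05), where 4.03% of all genes were called higher and 4.46% lower. P75 scaling called 7 higher, Rpl36a, Rps4x, Rpl3, Rps2, Rps6, Rps3 and Rps15, against 4.75% of all genes. On the dimmer probes 8 of 18 were called, all higher, where 6.05% of all genes were. They were Rpl39 (1.07), Rpl14 (1.00), Rpl23 (0.81), Rps6 (0.64), Rpl31 (0.63), Rps3 (0.63), Rpl13a (0.62) and Rpl27a (0.59), and the TFR to Treg difference of each lay nearer to 0 than its TFH to naïve difference. The median over 18 was 0.61, and it was between 0.53 and 0.69 when single arrays were left out, whereas the calls dropped to 1 without either TFR array or the d12 Treg array, and to 2 without either naïve array or the d25 Treg array.

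**Figure D5:**
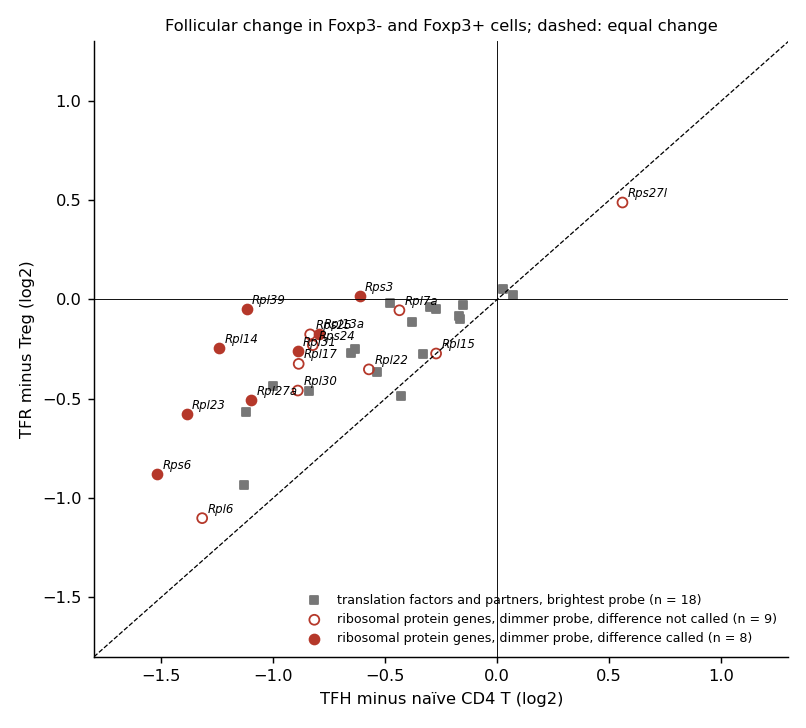
Change from Treg to TFR (vertical) against change from naïve CD4 T to TFH (horizontal), log2, for the dimmer probes of 17 of the 18 RP genes (circles, filled where the difference between both changes was called) and the brightest probes of 18 translation factors and partners (squares), with equal change dashed. Of the RP genes, Rps6 lies at -1.52 and -0.88, Rpl14 at -1.24 and -0.25, and Rps27l is the only one called higher on both axes.

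Treg and naïve CD4 T cells were compared with the same naïve arrays as in the TFH contrast. On the quantile scale Rps4l alone was called higher and none lower, where 5.89% and 3.98% of all genes were, and the median difference was -0.01. P75 scaling called 15 RP genes lower, against 5.47% of all genes, with a median of -0.49. On the dimmer probes none of 18 was called (4 at an unadjusted p below 0.05), with a median of -0.04. Of all 8145 genes, 678 were called higher and 582 lower there. With P75 scaling Rpl23 (-0.41) and Rpl14 (-0.38) were lower, with a median of -0.15, where 826 of all 8145 genes were lower, a similar share. Between d25 and d12 no RP gene was called on the brightest probes (3 at an unadjusted p below 0.05), where 0.019% of all genes were higher and 0.0507% lower. On the dimmer probes 3 of 18 were lower at d25, among them Rps25 (-0.48) and Rpl39 (-0.46), against 6.72% of all genes. Rpl39l had the largest day difference of the brightest probes, -1.08 with an adjusted p of 0.0579. All d12 arrays shared a slide, while at d25 naïve CD4 T and TFH cells were on another and Treg and TFR cells on yet another, so that day and slide cannot be told apart.

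Paralogs of RP genes differed among themselves. Rps27l is a p53 target and can replace Rps27 in the small subunit. It was at 38200 and 36315 RU on the naïve arrays, 57967 and 51953 RU in TFH, 44766 and 45319 RU in Treg and 66625 and 59925 RU in TFR cells. Follicular arrays were above all non-follicular arrays. The rise was 0.56 ± 0.09 in TFH (adjusted p = 0.00745) and 0.49 ± 0.09 in TFR cells (adjusted p = 0.0140), and the latter was not called when a Treg or TFR array was left out. Rps27 itself ranged from 692057 to 739379 RU on the quantile scale. On the P75 scale it showed -0.76 in TFH against naïve CD4 T cells, where Rps27l showed 0.44. Cdkn1a, which encodes the cell cycle inhibitor p21 and is also a p53 target, rose on both sides, by 5.34 in TFH and 2.58 in TFR cells, where its naïve levels of 33 and 20 RU were at or near the floor. Trp53, which encodes p53, fell by 0.64 and 0.62, and the p53 inhibitor Mdm2 changed little (values below). A part of p53 in these differences was not tested.

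Rps4l, an autosomal paralog of the X-linked Rps4x, was at 572 and 424 RU on the naïve arrays, 955 and 633 RU in TFH, 1284 and 931 RU in Treg and 1487 and 1023 RU in TFR cells. Within each day the order was naïve, TFH, Treg, TFR, with the d25 value below the d12 value in each cell type. It was higher by 0.66 ± 0.09 in TFH and by 1.15 ± 0.09 in Treg than in naïve CD4 T cells (adjusted p = 0.00414 and 0.00336), and neither call was made with all spots kept or without day in the model. Rpl22l1, the paralog of Rpl22 and outside the naming rule, was at 181150 and 186289 RU on the naïve arrays, 113243 and 98659 RU in TFH, 143486 and 163738 RU in Treg and 135789 and 143220 RU in TFR cells. It fell by 0.80 ± 0.12 in TFH cells (adjusted p = 0.00604), as the dimmer probe of Rpl22 did by 0.57. Rpl36al and Rpl7l1 showed -0.44 (adjusted p = 0.116) and 0.07 in TFH cells.

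Other members with a known role stayed near the median of the group. The P stalk recruits elongation factors, and its 3 genes Rplp0, Rplp1 and Rplp2 showed -0.09, -0.07 and 0.02 in TFH against naïve CD4 T cells on the quantile scale and -0.96, -0.92 and -0.75 on the P75 scale. Rpsa, also known as the laminin receptor, showed 0.14 and -0.71. The ubiquitin fusion Rps27a and Fau, a fusion with a ubiquitin-like protein that lies outside the naming rule, showed -0.06 and 0.04 on the quantile scale and -0.90 and -0.74 on the P75 scale. Of the 10 exit tunnel genes none was called on the quantile scale (median -0.02), where 25.6% of all genes were lower and 20.9% higher. All 10 were lower on the P75 scale (median -0.87), as were most RP genes and 29.4% of all genes. All 4 with a dimmer probe were lower on it, as were most RP genes there and 29.4% of all genes.

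Translation factors and partners listed for a known TOP motif were mostly dimmer than RP genes. The start site search above found a tract in Eef1a1 but not in Eef2 or Eif4b. Of 18, 12 were lower in TFH against naïve cells on the quantile scale and none higher (median -0.41), and 17 on the P75 scale (median -0.77), where 25.6% and 29.4% of all genes were lower. In TFR cells 6 were lower than in Treg cells and none higher, against 20.9% of all genes lower, and 4 were higher than in TFH cells, against 11.6%. Eif3e, a subunit of the initiation factor that binds the small subunit, was at 43728 and 49654 RU on the naïve arrays, 19018 and 23763 RU in TFH, 42356 and 54728 RU in Treg and 22536 and 28156 RU in TFR cells. Both follicular types were below both non-follicular types, by 1.13 ± 0.09 and 0.93 ± 0.09. Eif4b, a cofactor of the helicase that unwinds mRNA, fell by 1.12 and 0.56, and Npm1, a nucleolar chaperone of ribosome assembly, by 1.00 and 0.44. Eef1a1 and Tpt1, among the brightest of them, showed 0.07 and 0.03 in TFH cells.

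Regulators of TOP mRNAs were called lower at a share near that of all genes. Of 26, 4 were higher and 7 lower in TFH against naïve cells, where 20.9% of all genes were higher and 25.6% lower, and 2 higher and 6 lower in TFR against Treg cells, where 18.7% were higher and 20.9% lower. Tbc1d7, a subunit of the TSC complex that restrains mTOR, rose by 1.25 and 1.32, and Eif4ebp1, a repressor of cap binding, by 0.61 and 0.82. Larp1 fell by 0.79 and 0.86. Mtor rose by 0.94 in TFH cells, and its TFR to Treg difference was 0.32 (adjusted p = 0.242). Among 11 chaperones of RPs and sensors of free RPs, 6 were lower and 1 higher in TFH cells, against the same 25.6% and 20.9%. Grwd1, a chaperone of Rpl3, fell by 0.93, the small subunit assembly factor Ltv1 by 0.72, and Tsr2, the chaperone of Rps26, by 0.54 in TFH and by 0.93 in TFR cells. Nap1l1 fell by 0.46 in TFH and rose by 0.32 in TFR cells. Mdm2 showed 0.01 and -0.03.

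The mitochondrial RP genes served for comparison, since they build another ribosome and were of middle brightness. Of 77 tested, 14 were lower and 11 higher in TFH against naïve cells, where 25.6% and 20.9% of all genes were, with a median of -0.05 on the quantile and -0.12 on the P75 scale. In TFR compared with Treg cells 4 were lower and 16 higher, against 20.9% and 18.7% of all genes, with a median of 0.06 on both scales. Cytosolic RP genes on their dimmer probes had medians of -0.86 and -0.25 in the same contrasts. The difference between both families was not tested.

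Marker levels followed the labels. Bcl6, Cxcr5, Pdcd1 and Icos summed to 24208 and 25105 RU on the naïve, 631162 and 839587 RU on the TFH, 52347 and 45958 RU on the Treg and 237735 and 300997 RU on the TFR arrays. Foxp3, Il2ra, Lrrc32 and Ikzf2 summed to 99414 to 119487 RU in Treg and TFR cells, to 773 and 771 RU on the naïve arrays and to 10860 and 11232 RU in TFH cells. The 10 B cell markers summed to 6559 to 18738 RU, highest in TFH cells at d25. Of these 10, 9 were above background in naïve, 6 in TFH, 7 in Treg and 5 in TFR cells, while Pax5 was at the floor on 7 of 8 arrays. The 10 myeloid markers, of which 9 were on the array, summed to 67237 to 112348 RU, highest in naïve CD4 T cells at d12. In each cell type 4 of these 9 were above background, while Clec9a was at the floor on all arrays. Both CD8 T cell markers were above background in each cell type and summed to 2110 to 5118 RU. The 6 markers of antibody-secreting cells, 5 of them on the array, summed to 18015 and 19810 RU on the naïve and 39052 and 46378 RU on the TFH arrays, 30838 and 35957 RU on the Treg and 29458 and 39347 RU on the TFR arrays. The 4 red cell markers summed to 17630 and 19241 RU on the naïve, 11849 and 6924 RU on the TFH, 18103 and 9458 RU on the Treg and 11887 and 8327 RU on the TFR arrays, lower on both TFH and TFR arrays than on both naïve arrays. Their part in the results was not tested. In sorted pools, fewer cells of a kind and less RNA per cell cannot be told apart.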

How the data were processed

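Intensities were deposited as spot signals of one-colour Agilent arrays (Agilent Feature Extraction 10.7.3.1 per the submitters' processing notes), with 4 spots for each of 39429 probes. The authors also deposited a table of normalized intensities, which was set to log2 here. The authors' steps were repeated from the spots. Flagged spots, outliers by interquartile range and spots with a pixel coefficient of variation above 0.5 were left out, spots of a probe were averaged as geometric mean, arrays were quantile normalized and scaled to a 75th percentile of 1500 RU, and values were floored at 20 and set to log2. Correlation with the authors' table on the log2 scale was 0.9994 on every array, and the number of called RP genes was the same with it. The brightest percent of probes, where RP genes lie, was 0.51 log2 higher here than in that table (maximum 842075 against 585162 RU), so that the RP levels are not those of the authors. From 46.31% to 50.39% of probes were well above background per array, and the number of arrays limits the precision.

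Differences were fitted with limma 3.58.1 in R 4.3.3 on all 8 arrays with cell type and day as terms, leaving 3 residual degrees of freedom, and p-values received the Benjamini-Hochberg adjustment across the whole table. The labels give cell type and day, and taking both days as replicates was a choice made here. Deviations of same-day arrays from their group means correlated between 0.284 and 0.51 in all 6 pairs of cell types. Genes named are members with a fixed role, paralogs, the 5 called members with the largest rise and fall per contrast, members called for the difference between the follicular changes, and the leading genes of related lists. Others, among them Rps21 and the remaining dimmer probes, were named after their values were seen. Members and lists were chosen with earlier results of these data known. Alternatives were P75 scaling, normexp background correction, other spot, probe and background filters, a variance trend, no day term, slide as a block, the authors' table and leaving out each array. Some genes and lists are not reported here, though counts include them. The scripts were tested on simulated data.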

Additional observations from a re-analysis of the deposited data

Results flagged for a closer look

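The follicular change of Foxp3+ cells (TFR against Treg) differed from that of Foxp3- cells (TFH against naïve CD4 T) by limma's test of the difference itself in 8 RP genes read from their dimmer probes. The difference on the log2 scale was 1.07 ± 0.23 (SE) for Rpl39, 1.00 ± 0.12 for Rpl14, 0.81 ± 0.13 for Rpl23, 0.64 ± 0.12 for Rps6, 0.63 ± 0.14 for Rpl31, 0.63 ± 0.13 for Rps3, 0.62 ± 0.15 for Rpl13a and 0.59 ± 0.12 for Rpl27a, with adjusted p from 0.00573 to 0.0448. Leaving out single arrays gave 1 to 12 such genes. Among the genes of related lists, Cdkn1a differed by -2.76 ± 0.23 (adjusted p = 0.00703) and Nap1l1 by 0.78 ± 0.11 (adjusted p = 0.0226), the latter lower in TFH and higher in TFR cells. The naïve levels of Cdkn1a were 33 and 20 RU, at or near the floor of 20, so that its rise in TFH cells and this difference are not exact. On each day the 2 arrays of a follicular change shared a slide, and at d12 all 4 did. The difference between the changes of the 8 RP genes was 0.64 to 1.06 at d12 and 0.50 to 1.37 at d25.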

How the results depend on the processing

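The scale and the probe decided most counts of called RP genes and most medians. The number of all genes called also changed with the setting, and is given below for d25 against d12 only. For TFH against naïve CD4 T cells (8 called, median -0.056), P75 scaling gave 76 and -0.896, the mean of all probes 20 and -0.126, a variance trend 15, and the dimmer probes 15 and -0.861 (15 and -0.913 with P75). Leaving out arrays gave 2 to 9 and -0.068 to -0.023. For TFR against Treg (2, -0.006), P75 gave 9 and -0.26, normexp 5 and -0.02, no background filter 5, the mean of all probes 5 and -0.055, the trend 8, slide as a block 1, and the dimmer probes 8 and -0.253 on both scales. Leaving out arrays gave 0 to 4 and -0.017 to -0.002. For TFR against TFH (1, 0.047), P75 gave 2 and 0.15, all spots kept 0, no filter 6, the mean 2 and 0.109, the trend 5, slide as a block 0, and the dimmer probes 11 and 0.559 (11 and 0.524). Leaving out arrays gave 0 to 4 and 0.031 to 0.067. For Treg against naïve CD4 T cells (1, -0.006), P75 gave 16 and -0.49, all spots kept 0, no filter 3, the trend 2, and the dimmer probes 0 and -0.04 (2 and -0.148). Leaving out arrays gave 1 in every case and -0.013 to 0.014. For the difference between the follicular changes (0, 0.044), P75 gave 7 and 0.627, no filter 1, the trend 1, the mean 0.093, and the dimmer probes 8 and 0.609 (10 and 0.671). Leaving out arrays gave medians of 0.016 to 0.066. For d25 against d12 (0, -0.015), P75 gave -0.24, normexp 2, a filter on all arrays 2, the trend 2, and the dimmer probes 3 and -0.13 (6 and -0.236). The calls over all genes rose as well. Of 15764 genes, 3 were higher and 8 lower in the main fit, 524 and 331 with normexp, and 689 and 406 with the trend. The filter on all arrays gave 508 and 311 of 13299. Leaving out arrays gave medians of -0.024 to -0.003. On the dimmer probes, leaving out arrays gave 14 to 16 called and -0.957 to -0.693 for TFH against naïve, 5 to 10 and -0.311 to -0.182 for TFR against Treg, 3 to 15 and 0.474 to 0.597 for TFR against TFH, and 1 to 12 and 0.534 to 0.693 for the difference between the changes.

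Without the day block, which rests on the pairing by day, the counts were 7 for TFH against naïve CD4 T cells, 1 for TFR against Treg, 0 for TFR against TFH and 0 for Treg against naïve. For single genes, P75 scaling turned the TFH to naïve difference of Fau (-0.736), Rpl22 (-0.834), Rplp2 (-0.754), Rps27 (-0.758) and Rpsa (-0.711), and the mean of all probes turned the TFR to Treg difference of Rps27a (0.751) and Rps6 (-0.392). None of these 7 was called on the quantile scale. Of all other comparisons of named genes with an alternative, 784 kept direction and side of the threshold, 29 lost the call and 20 gained it, and when arrays were left out 477 kept it, 76 lost it and 7 gained it. The causes were not tested.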
